A study of Mus musculus with 13 samples.

Results

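CD4+ T helper cells that carry the Eomes-TKO genotype were compared with Eomes-GFP cells from mice given a control IgG. The comparison holds 5 of the 13 RNA-seq libraries of the series, chosen by their labels: 3 from Eomes-TKO and 2 from Eomes-GFP animals. Both lines were crossed to Foxp3-Thy1.1 reporter mice. All animals received an NK1.1-depleting antibody (50 µg on days -2 and 5) and Vk12653 multiple myeloma cells on day 0. The control IgG was given at 20 µg on days 10, 13 and 16, and spleens were taken on day 18. Cells were sorted as TCR+, CD4+ and Thy1.1-negative, so Foxp3 reporter cells were left out, and cells given IgG were not divided by GFP. The other groups received a 4-1BB agonist on the same schedule: 2 Eomes-TKO libraries, and 3 GFP+ and 3 GFP- fractions of Eomes-GFP mice. How the Eomes-TKO allele was built, and in which cells it acts, is not described in the labels. The labels do not say that replicates were separate animals, beyond a library prefix for each.

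Eomes encodes a T-box transcription factor best known from cytotoxic lymphocytes, natural killer cells and memory T cells, where it acts beside its relative T-bet. Most splenic CD4+ T cells are naive or resting and express little of it. A minority of CD4+ T cells with cytotoxic or memory features express it, and the series asks how the factor bears on progenitor helper cells. In undivided cells the comparison reads the mean over the whole helper population, and fewer cells of a type cannot be told apart from less RNA per cell.

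The 5 libraries held 7139606 to 10235363 estimated counts and 17127 to 17934 genes with a count. Levels are given as CPM, each count over the TMM-scaled library total in units of 1e+06 counts, and a change as a log2 fold change of Eomes-TKO over Eomes-GFP with its standard error (SE) from edgeR. Replicates of a genotype differed by more than counting error (chi-square over its degrees of freedom, 8.03 to 23.2). Log2 levels of 10496 genes correlated at 0.970 to 0.987 between libraries of a genotype and at 0.968 to 0.988 between genotypes, so libraries did not separate by genotype over all genes. Eomes-TKO replicate 3 was the shallowest library and had the lowest of these correlations, 0.968 with Eomes-GFP replicate 2. Cd3e, a chain of the T cell receptor complex, stood at 771 and 803 CPM in Eomes-GFP and at 920, 982 and 872 CPM in Eomes-TKO cells.

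Only Eomes and Kcnc1 passed the test across all genes. The 2 genes are 0.0142% of the 14059 tested at an adjusted p under 0.05. Eomes, the T-box factor after which both lines are named, was measured at 13.99 and 16.8 CPM in the pair of Eomes-GFP libraries, while the Eomes-TKO libraries held 1.36, 2.96 and 3.19 CPM. Both Eomes-GFP libraries lay above all 3 Eomes-TKO libraries, and none of the latter was at 0. Eomes was lower in Eomes-TKO by a log2 fold change of -2.64 ± 0.33 SE (95% interval -3.35 to -1.93; edgeR adjusted p = 0.0219). RNA counts say nothing of Eomes protein. With either Eomes-GFP library left out the gene no longer passed (adjusted p = 0.0695 for replicate 1 and 0.344 for replicate 2), and likewise with Eomes-TKO replicate 1 (0.0554) or 2 (0.170) left out, the fold change staying between -2.81 and -2.33.

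Kcnc1 encodes Kv3.1, a fast voltage-gated potassium channel known mainly from fast-spiking neurons. Its level was 3.43 and 4.70 CPM with Eomes-GFP, while the Eomes-TKO libraries held 0.417, 0.592 and 0.664 CPM. The 2 genotypes did not overlap. In the Eomes-TKO libraries 1 count was 0.104, 0.0986 and 0.133 CPM. The 3 Eomes-TKO values thus rest on few counts, and their closeness says little of the agreement of replicates. Kcnc1 was lower in Eomes-TKO by a log2 fold change of -2.86 ± 0.33 SE (95% interval -3.57 to -2.14; edgeR adjusted p = 0.00696). It no longer passed with Eomes-GFP replicate 2 left out (adjusted p = 0.304), nor with Eomes-TKO replicate 1 (0.0554) or 2 (0.0616) left out. With the 5 IgG libraries fitted alone neither gene passed (adjusted p = 0.156 for Kcnc1 and 0.0634 for Eomes). Over all alternatives the adjusted p ran from 1.32e-06 to 0.304 for Kcnc1 and from 8.34e-39 to 0.344 for Eomes, the lowest with no filter on low counts.

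The treated libraries are not part of the contrast by genotype under IgG, but they share its scaling and gene filter. They also supply most of the spread that the model of 13 libraries uses for its p-values. Fitted without them, the log2 fold change was -2.63 for Eomes and -2.85 for Kcnc1, and 13263 genes were tested. The treated libraries give both genes a wider range. Kcnc1 reached 15.4, 16.6 and 14.8 CPM in GFP+ cells, 0.366, 0.244 and 0.271 CPM in GFP- cells, and 0.156 and 0.209 CPM in treated Eomes-TKO cells. In the treated Eomes-TKO libraries 1 count was 0.156 and 0.104 CPM, so the low Kcnc1 values there rest on few counts. Eomes reached 570, 706 and 685 CPM in GFP+ cells and 3.54, 1.83 and 2.26 CPM in GFP- cells. Treated Eomes-TKO cells held 3.59 and 8.03 CPM of Eomes, at or above the GFP- range. The mean of the undivided Eomes-GFP IgG libraries was 26.0% of the GFP+ mean for Kcnc1 and 2.36% for Eomes. The 2 genes thus stood at different fractions of their GFP+ level in the same undivided cells, across a difference in treatment.

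**Figure D1:**
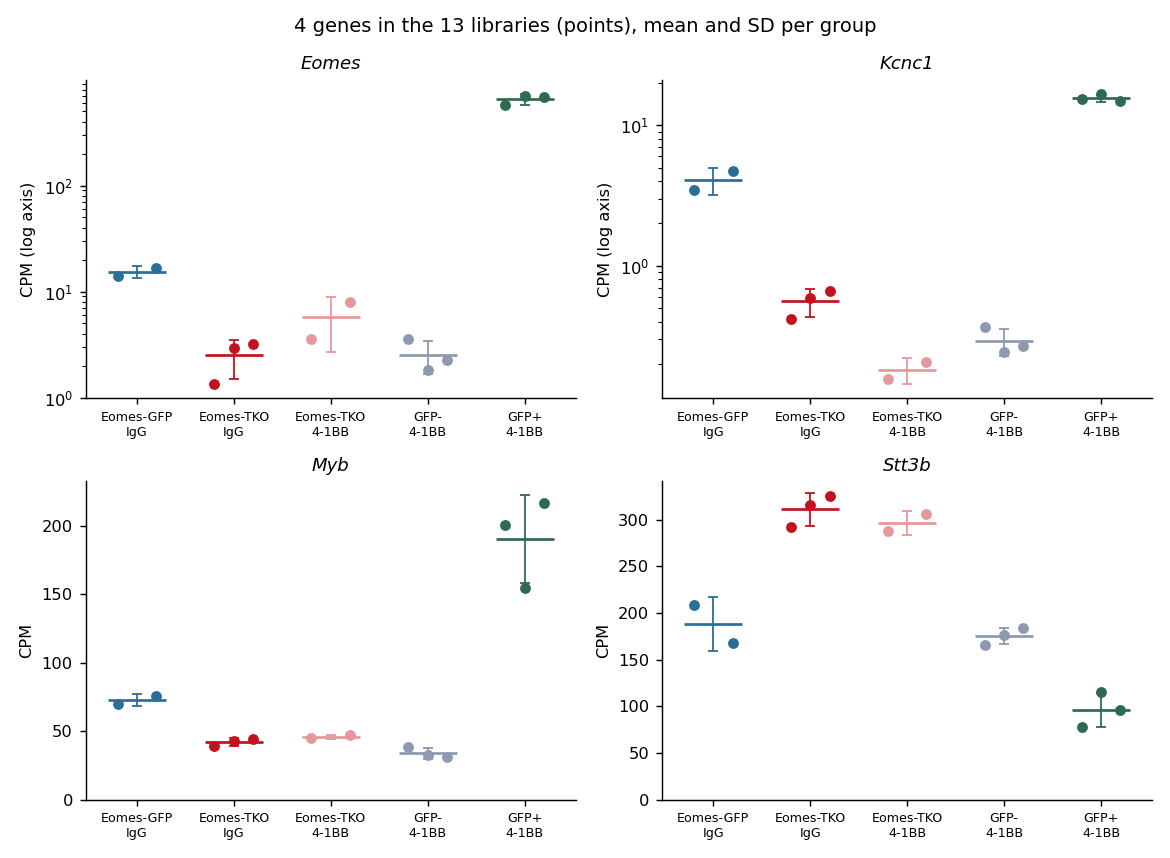
Levels of Eomes, Kcnc1, Myb and Stt3b in CPM (vertical axis, log axis for Eomes and Kcnc1) in the 13 libraries, by group; points are libraries, bars the group mean and SD. The Eomes-GFP IgG libraries lie above the 3 Eomes-TKO IgG libraries for Eomes (13.99 and 16.8 CPM), Kcnc1 and Myb, and below them for Stt3b.

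The sequences before the starts of Kcnc1 and of Myb are shown because these genes were the 2 with the smallest p among genes that were lower in Eomes-TKO and not Eomes itself. The sequences come from RefSeq on GRCm38.p6 and cover the 250 bases before each annotated start, at chr7:46396218-46396467 (+ strand) for Kcnc1 and chr10:21160985-21161234 (- strand) for Myb. Capitals mark GGTGTGA, the core letters of the T-box element, searched on both strands.
Kcnc1: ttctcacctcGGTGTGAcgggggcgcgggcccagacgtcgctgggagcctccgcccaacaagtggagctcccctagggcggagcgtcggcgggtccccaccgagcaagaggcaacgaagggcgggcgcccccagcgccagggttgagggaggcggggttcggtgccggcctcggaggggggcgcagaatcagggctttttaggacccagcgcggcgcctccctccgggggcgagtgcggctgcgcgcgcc
Myb: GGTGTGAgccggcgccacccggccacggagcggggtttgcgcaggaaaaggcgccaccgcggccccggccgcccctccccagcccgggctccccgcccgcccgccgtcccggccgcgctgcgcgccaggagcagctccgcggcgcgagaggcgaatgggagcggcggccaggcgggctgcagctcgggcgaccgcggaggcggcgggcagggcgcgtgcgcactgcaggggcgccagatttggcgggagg
Each held 1 match, on the gene's own strand, starting at base 11 of the Kcnc1 window and at base 1 of the Myb window. Of all 32851 windows of this length 3.33% held the letters, and of the 9416 tested genes that matched the table by symbol 3.48%. The windows of Eomes and Stt3b held none. Among genes with an unadjusted p under 0.05, 7 of 125 lower and 8 of 170 higher genes with a window held the letters. A match is a description of letters, and no binding was measured.

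Most genes differed little between the genotypes, with exceptions described below that did not pass the test. Unadjusted p-values under 0.05 were found for 430 genes, 3.06% of those tested. Of these, 241 (1.71%) were higher and 189 (1.34%) lower in Eomes-TKO. A share of 0.05 would fall under this limit if no gene differed and the p-values were exact. The number of these genes is thus no sign of a difference between the genotypes. All 3 Eomes-TKO libraries lay above both Eomes-GFP libraries for 1354 genes (9.63%) and below both for 1212 genes (8.62%). With 3 against 2 libraries, groups separate about this often without any difference too. The median log2 fold change over all genes was 0. Of the 10496 genes with a mean of at least 4 CPM, 89.5% had a 95% interval inside 2-fold in either direction and 59.7% inside 1.5-fold, and 38 genes had an estimate past 2-fold. Differences of 2-fold in the mean of the whole population were therefore outside the interval for most well expressed genes, while smaller ones were often not detectable at this number of libraries. A batch of mice, were there one, cannot be told apart from genotype here.

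**Figure D2:**
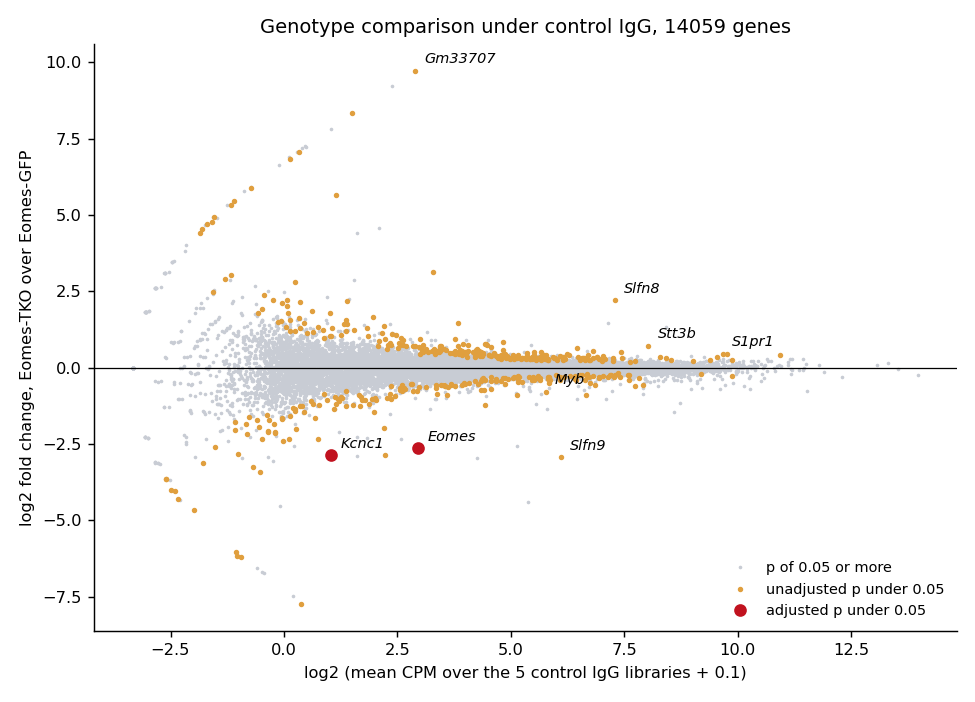
Log2 fold change of Eomes-TKO over Eomes-GFP (vertical axis) against the log2 of the mean CPM over the 5 control IgG libraries plus 0.1 (horizontal axis) for 14059 genes; orange points have an unadjusted p under 0.05 and the 2 red points, Eomes and Kcnc1, an adjusted p under 0.05. Most well expressed genes lie near 0, and Slfn8 and Slfn9 stand out at high levels without passing the test.

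Myb, Stt3b and Gm33707 were among the 10 genes with the smallest p, and none of them passed with edgeR. Myb, a transcription factor of haematopoietic progenitors and of stem-like and memory T cells, stood at 69.7 and 76.1 CPM in Eomes-GFP and at 39.3, 42.9 and 44.6 CPM in Eomes-TKO libraries. The genotypes were well apart and replicates close (log2 fold change -0.79 ± 0.14 SE, edgeR adjusted p = 0.200). In the treated libraries Myb stood at 45.0 and 47.03 CPM in Eomes-TKO cells, at 38.5, 32.5 and 31.1 CPM in GFP- cells and at 201, 155 and 217 CPM in GFP+ cells. Treated Eomes-TKO cells thus lay just above the GFP- range and far below GFP+ cells. DESeq2 gave an adjusted p of 0.00601 for Myb, and over all alternatives it ran from 6.83e-05 to 1.

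Stt3b encodes a catalytic subunit of the oligosaccharyltransferase, which attaches N-linked sugars to proteins in the endoplasmic reticulum. It stood at 209 and 167 CPM in Eomes-GFP and at 292, 316 and 325 CPM in Eomes-TKO libraries. The lowest Eomes-TKO library lay well above the highest Eomes-GFP library (log2 fold change 0.73 ± 0.14 SE, edgeR adjusted p = 0.398, DESeq2 adjusted p = 0.0105, range over all alternatives 9.89e-05 to 1 for Stt3b). Treated Eomes-TKO cells held 287 and 306 CPM, GFP- cells 166, 176 and 183 CPM and GFP+ cells 77.9, 115 and 96.0 CPM. All 5 Eomes-TKO libraries therefore lay above all 8 Eomes-GFP libraries, in both treatments.

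Stt3b lies on chromosome 9 with Eomes, 7 tested genes before it in the gene order of GENCODE M21. Among the 40 tested genes nearest to Eomes, 2 (5.00%) had an unadjusted p under 0.05, Stt3b and Itga9. Itga9, an integrin chain 2 tested genes after Eomes, stood at 7.88 and 5.78 CPM in Eomes-GFP and at 3.23, 4.14 and 3.85 CPM in Eomes-TKO cells (-0.86 ± 0.33 SE, edgeR adjusted p = 1). The same window held 1 of 40 genes around Kcnc1 and 4 of 40 around Myb, among them Arfgef3 and Hmgb1-ps8. Arfgef3, an ARF exchange factor family member, stood at 1.40 and 1.17 CPM in Eomes-GFP and at 0.104, 0.592 and 0.133 CPM in Eomes-TKO cells. By chromosome the share ran from 1.86% to 5.02% of tested genes.

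Gm33707, an unnamed gene on chromosome 3, had 0 counts in both Eomes-GFP IgG libraries and in the 6 treated GFP+ and GFP- libraries. It stood at 7.61, 9.57 and 19.5 CPM in the Eomes-TKO IgG libraries and at 21.2 and 9.49 CPM in treated Eomes-TKO cells. It was thus found in all 5 Eomes-TKO libraries and in none of the 8 Eomes-GFP libraries. With 3 counts over the Eomes-GFP IgG group taken as the floor, it was at least 73.7-fold higher (edgeR adjusted p = 0.200). DESeq2 gave an adjusted p of 2.49e-05 for Gm33707, and over all alternatives it ran from 3.04e-26 to 1. Its transcripts share 11.1% of their 31-base words with Eno1, the glycolytic enzyme enolase, so the assignment of its reads is uncertain. Eno1 itself stood at 446 and 436 against 464, 559 and 471 CPM.

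Several weakly expressed genes were also lower in Eomes-TKO, and these were read beside the treated sort. A rule set after the values were seen asked for at least 0.5 CPM in both Eomes-GFP IgG libraries, with both above every Eomes-TKO library of either treatment and every GFP- library, for a mean at least 2-fold that of each such group, and for GFP+ above GFP- without overlap. It found 9 genes, 0.0640% of those tested: Kcnc1, Eomes, Ptprm, Hdac9, BC035044, Ntn1, Epha3, Itgad and Gm36936. No p is given for the list, since the rule uses the same libraries. Ptprm, a receptor tyrosine phosphatase, stood at 1.02 and 1.08 CPM in Eomes-GFP and at 0 in all 3 Eomes-TKO libraries, at least 9.52-fold lower with 3 counts over that group as the floor. It had no counts in GFP- cells and 2.22, 2.23 and 3.55 CPM in GFP+ cells. The gene was thus detected in each undivided Eomes-GFP library and each GFP+ library but not in GFP- or Eomes-TKO cells, apart from 0.313 CPM in 1 treated Eomes-TKO library.

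Hdac9, a class IIa histone deacetylase, stood at 3.43 and 2.64 CPM in Eomes-GFP and at 0.417, 0.592 and 0.797 CPM in Eomes-TKO cells. GFP+ cells held 2.22, 3.80 and 3.65 CPM, so the undivided Eomes-GFP mean came to 94.3% of the GFP+ mean. BC035044, an uncharacterised gene, likewise reached 86.9% of its GFP+ mean in undivided cells, whereas Epha3 and Itgad reached 9.43% and 2.62%. Undivided cells of control mice thus held some of these transcripts at about the GFP+ level and others at a small fraction of it, with treatment differing between the 2 kinds of library. Zc3h12c, of the Regnase family of RNA-degrading proteins, stood at 1.53 and 0.392 CPM in Eomes-GFP and at 0 in every Eomes-TKO IgG library, at least 8.71-fold lower. Bend4 stood at 1.91 and 2.06 CPM against 0.417, 0.197 and 0.930 CPM, and at 51.8 to 73.2 CPM in GFP+ cells. None of these weakly expressed genes other than Eomes and Kcnc1 passed (edgeR adjusted p = 1 for each one named here), and each rests on few counts.

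The 430 genes with an unadjusted p under 0.05 were also set beside the treated sort. The contrast by genotype holds none of its libraries. The scaling, gene filter and spread behind the p-values do use them, so the 430 genes were not chosen independently of them. The GFP+ and GFP- fractions share an animal by their library prefix, and the sort counts come from a model that treats the 6 fractions as separate samples. Of the 189 lower genes, 66 (34.9%) were called higher in GFP+ than in GFP- cells and 27 (14.3%) lower, against 20.7% and 16.5% of all tested genes. Of the 241 higher genes, 60 (24.9%) were called higher in GFP+ cells and 52 (21.6%) lower. The 66 genes are 2.27% of the 2905 called higher in GFP+ cells, so most genes of the sort showed no such difference by genotype.

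**Figure D3:**
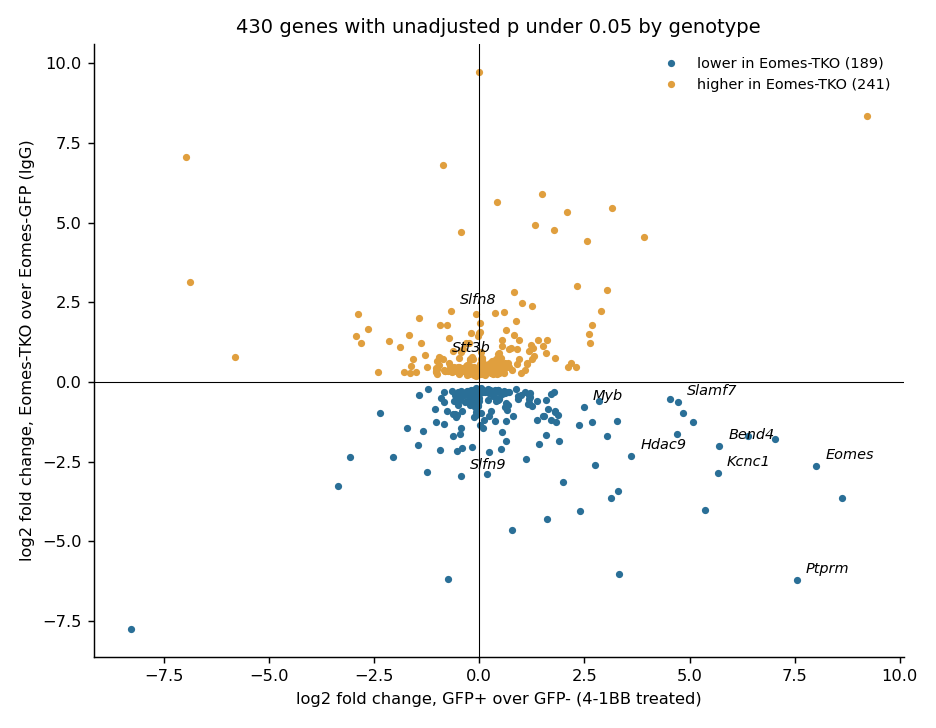
Log2 fold change by genotype under IgG (vertical axis) against that of GFP+ over GFP- cells in treated mice (horizontal axis) for the 430 genes with an unadjusted p under 0.05 by genotype; blue are the 189 lower and orange the 241 higher in Eomes-TKO. Eomes, Kcnc1, Ptprm, Bend4, Hdac9 and Slamf7 lie at the lower right, lower in Eomes-TKO and higher in GFP+ cells.

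The genes that most marked GFP+ cells had, with the exception of Eomes, no called difference by genotype in undivided cells. The list of genes called higher in GFP+ cells by a log2 fold change of at least 3, and with at least 100 CPM there, held 34 genes (0.242% of those tested). Of these, 13 had a positive and 21 a negative log2 fold change by genotype, the median was -0.12, and Eomes was the 1 called. An unadjusted p under 0.05 was found for 3 lower and 0 higher members, beside 1.34% and 1.71% of all genes. In every Eomes-TKO library 5 members lay below and 2 above both Eomes-GFP libraries, beside 8.62% and 9.63% of all genes. These counts include Eomes itself. The 33 members without it held 13 positive and 20 negative genes, with 2 lower at such a p, 4 wholly below and 2 above. A wider list of 202 genes, with a log2 limit of 2 and 20 CPM, had 10 lower and 3 higher members at an unadjusted p under 0.05. Over all genes 50.0% were positive and 49.8% negative with a median of 0. The summed level of the 34 genes was 419 and 471 CPM in Eomes-GFP and 404, 436 and 406 CPM in Eomes-TKO libraries, ranges that overlapped. The median member stood at 3.43% of its GFP+ mean in undivided Eomes-GFP, at 3.53% in undivided Eomes-TKO and at 3.55% in treated GFP- cells. Undivided cells of either genotype thus held these transcripts at about the level of GFP- cells.

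Adam19, a membrane protease, stood at 63.3 and 68.3 CPM in Eomes-GFP and at 53.4, 79.6 and 74.5 CPM in Eomes-TKO cells (0.07 ± 0.21 SE). Cxcr5, the receptor that guides follicular helper cells, stood at 35.6 and 23.4 against 32.8, 31.7 and 20.3 CPM. The genotypes overlapped for both, and for Pdcd1, which encodes PD-1 (20.5 and 17.5 against 23.5, 20.1 and 14.2 CPM). Slamf7, a receptor of the SLAM family found on cytotoxic cells, stood at 11.1 and 19.7 against 9.07, 10.9 and 10.1 CPM. Its log2 fold change was -0.63 ± 0.25 SE and -0.14 without Eomes-GFP replicate 2. The list of genes lower in GFP+ cells by the same limits held 11 genes (0.0782%), 8 positive and 3 negative by genotype with a median of 0.08. Igfbp4, known from naive CD4+ cells, was among them at 625 and 522 CPM in Eomes-GFP, below all 3 Eomes-TKO libraries (0.23 ± 0.15 SE, edgeR adjusted p = 1).

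T-box linked and cytotoxic genes had medians near 0, and none was called. Of 15 T-box linked genes, 7 were positive and 8 negative with a median of -0.01, none had an unadjusted p under 0.05, and 1 lay wholly below and 0 above, beside 8.62% and 9.63% of all genes. Their median was -0.26 without Eomes-GFP replicate 1 and 0.20 without replicate 2. Tbx21, which encodes T-bet, stood at 12.1 and 21.5 CPM in Eomes-GFP and at 16.8, 19.8 and 21.1 CPM in Eomes-TKO cells, with a 95% interval of -0.61 to 0.98 on the log2 scale. Gzmk, which encodes granzyme K, was below 1 CPM in all 5 libraries (0.763 and 0.587 against 0.521, 0.394 and 0.133 CPM), too low to show a moderate difference. Of 20 cytotoxic genes tested, 9 were positive and 11 negative (median -0.09), and 2 had an unadjusted p under 0.05, both lower, beside 1.34% of all genes. Of the 20, 4 lay wholly below and 1 above. The members with such a p were Slamf7 and Crtam, an adhesion receptor of cytotoxic CD4+ T cells, at 6.74 and 5.87 against 3.65, 4.34 and 4.52 CPM. Nkg7, a cytotoxic granule protein, overlapped at 14.1 and 22.1 against 18.3, 26.0 and 23.8 CPM. Ifng overlapped at 7.76 and 8.42 against 6.67, 7.79 and 6.64 CPM.

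Progenitor and stem-like genes were more often positive than negative, without a called member. Of 18 genes, 14 were positive and 4 negative with a median of 0.09, beside 50.0% and 49.8% of all genes. An unadjusted p under 0.05 was found for 1 lower (Myb) and 1 higher member (Foxo1), beside 1.34% and 1.71% of all genes. In every Eomes-TKO library 3 members lay above and 2 below both Eomes-GFP libraries, beside 9.63% and 8.62%. Tcf7 (TCF1, a factor of naive and stem-like T cells) stood at 1412 and 1566 CPM in Eomes-GFP and at 1844, 1944 and 1418 CPM in Eomes-TKO cells. Its groups overlapped through Eomes-TKO replicate 3, and the 95% interval ran from -0.26 to 0.70. Slamf6, a surface receptor of progenitor cells, stood at 261 and 203 against 219, 227 and 305 CPM, with an interval of -0.23 to 0.45. A 2-fold difference in either gene lay outside these intervals. Id3, an inhibitor of E proteins kept on in memory precursors, stood at 27.1 and 28.6 against 22.3, 18.2 and 21.0 CPM without overlap (-0.44 ± 0.26 SE, edgeR adjusted p = 1). Tnfrsf9, which encodes 4-1BB, overlapped at 13.4 and 16.1 against 16.3, 11.7 and 14.2 CPM.

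Naive and quiescence genes leaned higher in Eomes-TKO cells without a called member. Of 18 genes, 15 were positive and 3 negative with a median of 0.19. All Eomes-TKO libraries lay above both Eomes-GFP libraries for 9 members and below for 0, beside 9.63% and 8.62% of all genes. S1pr1, the receptor by which lymphocytes leave lymphoid organs, stood at 658 and 676 CPM in Eomes-GFP and at 812, 943 and 990 CPM in Eomes-TKO cells (0.46 ± 0.11 SE, edgeR adjusted p = 1). Tsc22d3, a glucocorticoid-induced regulator, stood at 135 and 141 against 170, 203 and 215 CPM. Foxo1, a factor that maintains naive T cells, stood at 595 and 606 against 692, 716 and 724 CPM. These 3 genes did not overlap between the genotypes and were the members with an unadjusted p under 0.05. Il7r, the interleukin-7 receptor, stood at 544 and 512 against 560, 684 and 754 CPM (0.33 ± 0.28 SE). Of 18 homing and egress receptors, which include S1pr1, 12 were positive and 6 negative (median 0.15), and Ccr7 overlapped at 385 and 350 against 378, 453 and 415 CPM.

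Interferon response genes were mostly positive too. Of 33 genes, 28 were positive and 5 negative with a median of 0.23, and 5 had an unadjusted p under 0.05, all higher, Slfn8 among them, beside 1.71% of all genes. In every Eomes-TKO library 10 lay above both Eomes-GFP libraries and 1 below, beside 9.63% and 8.62%. Ifi44 stood at 2.80 and 3.23 CPM in Eomes-GFP and at 7.19, 6.41 and 5.98 CPM in Eomes-TKO cells (1.11 ± 0.41 SE, edgeR adjusted p = 1). Oas3, a sensor of double-stranded RNA, stood at 59.6 and 63.5 against 71.8, 111 and 69.6 CPM. Slfn1, of the Schlafen family and 5 tested genes after Slfn8 on chromosome 11, stood at 254 and 280 against 312, 412 and 293 CPM. Eomes-TKO replicate 2 was the highest library for Oas3 and Slfn1, and without it the median of the list was 0.05. The summed level of the 33 genes overlapped, at 2899 and 3032 CPM against 3242, 4049 and 2933 CPM. Treated sums were 3089 and 3751 CPM in Eomes-TKO, 3390 to 4064 CPM in GFP- and 2695 to 3098 CPM in GFP+ cells.

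Heat shock and chaperone genes leaned lower in Eomes-TKO. Of 22 tested genes, 2 were positive and 20 negative with a median of -0.39, 5 had an unadjusted p under 0.05, all lower, and 10 lay below both Eomes-GFP libraries in every Eomes-TKO library, beside 1.34% and 8.62% of all genes. Dnaja1, a co-chaperone of HSP70, stood at 262 and 271 CPM in Eomes-GFP and at 193, 153 and 178 CPM in Eomes-TKO cells (-0.61 ± 0.15 SE, edgeR adjusted p = 1). Hsp90aa1, the inducible HSP90, stood at 279 and 317 against 221, 204 and 180 CPM. Hsph1, a nucleotide exchange factor for HSP70, stood at 133 and 147 against 87.7, 75.7 and 61.5 CPM. All 3 genes were apart between the genotypes, as were Chordc1 (125 and 133 against 91.4, 88.2 and 94.2 CPM) and Dnajb1 (150 and 136 against 103, 98.4 and 90.5 CPM). The summed level of the list was 4727 and 5664 CPM against 4379, 4461 and 3469 CPM. Eomes-GFP replicate 2 was the highest and Eomes-TKO replicate 3 the lowest library, and the median was -0.17 without the former.

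The same 2 libraries were the extremes for mitochondrially encoded genes. The share of mitochondrial counts was 1.84% and 2.54% in Eomes-GFP and 2.01%, 2.03% and 1.49% in Eomes-TKO libraries, ranges that overlapped. All 15 genes were negative with a median of -0.70, and none had an unadjusted p under 0.05. Without Eomes-GFP replicate 2 the median was 0.10, so the sign of this list rested on that library. The part of whatever sets these 2 libraries apart in the heat shock values was not tested.

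Proliferation genes were at low levels and leaned lower. Of 33 genes, 7 were positive and 26 negative with a median of -0.21, and 5 had an unadjusted p under 0.05, all lower, beside 1.34% of all genes. In every Eomes-TKO library 8 lay below both Eomes-GFP libraries, beside 8.62%. Spag5, a spindle protein, stood at 2.03 and 4.31 CPM in Eomes-GFP and at 1.36, 1.28 and 1.59 CPM in Eomes-TKO cells (-1.20 ± 0.35 SE). Cenpf, a kinetochore protein, stood at 2.93 and 6.56 against 1.88, 2.27 and 1.86 CPM. For both genes Eomes-GFP replicate 2 was the highest library. Cenpe, a kinetochore motor, stood at 5.09 and 6.56 against 2.08, 4.14 and 1.99 CPM, and Nusap1 at 3.43 and 4.99 against 2.61, 2.07 and 2.13 CPM. Without Eomes-GFP replicate 2 the median of the list was 0.07, a change of sign.

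**Figure D4:**
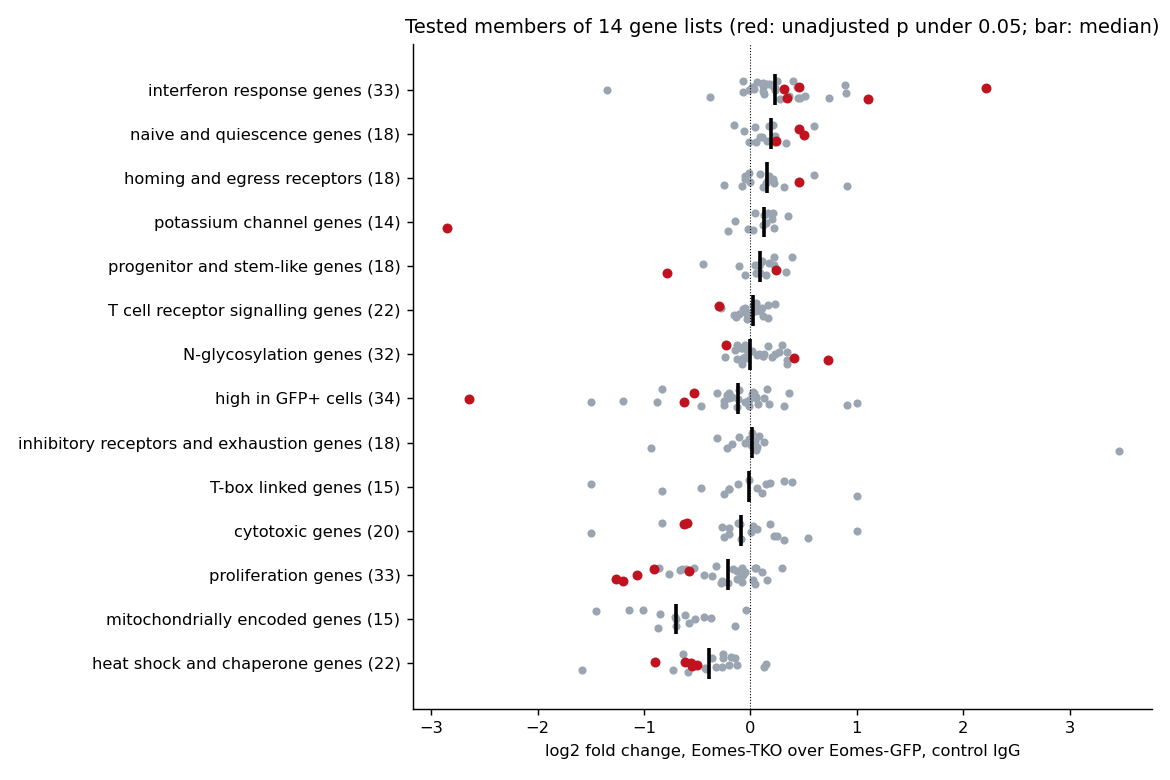
Log2 fold change of Eomes-TKO over Eomes-GFP under IgG (horizontal axis) for the tested members of 14 gene lists (vertical axis, number of tested genes in brackets); red points have an unadjusted p under 0.05 and the bar is the list's median. Medians run from -0.70 for mitochondrially encoded genes to 0.23 for interferon response genes, and Kcnc1 lies at -2.86 apart from the other potassium channel genes.

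Other potassium channel genes did not follow Kcnc1. Of 21 listed, 14 were tested, 10 were positive and 4 negative with a median of 0.12, and Kcnc1 was the only member called or with an unadjusted p under 0.05. Kcnab2, a channel beta subunit, stood at 262 and 261 CPM in Eomes-GFP and at 280, 314 and 276 CPM in Eomes-TKO cells, with a 95% interval of -0.15 to 0.45. Kcnh2, a voltage-gated channel, overlapped at 12.5 and 11.8 against 12.1, 15.8 and 13.9 CPM. N-glycosylation genes, the pathway of Stt3b, were even: 16 were positive and 16 negative with a median of -0.01, and 2 higher and 1 lower had an unadjusted p under 0.05. Man1a, a mannosidase of the Golgi, stood at 214 and 206 against 178, 165 and 193 CPM. Alg12, a mannosyltransferase, stood at 16.2 and 14.7 against 16.6, 20.9 and 24.2 CPM. T cell receptor signalling genes had a median of 0.02 over 22 genes, and Vav1, an exchange factor downstream of the receptor, was the 1 with an unadjusted p under 0.05, at 167 and 180 against 156, 150 and 119 CPM. Inhibitory receptor and exhaustion genes had a median of 0.01 over 18 genes, and 0 had an unadjusted p under 0.05.

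Genes with the largest fold changes among those averaging at least 4 CPM, without overlap and with an unadjusted p under 0.05, showed no called member besides Eomes. Higher in Eomes-TKO were Lyrm7, a mitochondrial assembly factor, at 3.43 and 1.27 against 6.88, 6.80 and 4.25 CPM, and Ift46, of the intraflagellar transport complex, at 9.16 and 8.32 against 15.5, 15.3 and 19.4 CPM. Klf11, a Krüppel-like factor, stood at 22.9 and 15.7 against 38.9, 27.9 and 37.1 CPM. Mgat4b, a Golgi enzyme that branches N-linked sugars, stood at 3.05 and 2.94 against 5.63, 6.21 and 5.18 CPM. Lower were Timm8a1, a mitochondrial import chaperone, at 13.1 and 14.98 against 6.98, 6.90 and 9.43 CPM, and Scarna2, a small Cajal body RNA, at 38.8 and 58.8 against 35.1, 28.6 and 14.7 CPM. Hmgb1-ps8, a pseudogene that shares 35.9% of its 31-base words with Hmgb1, stood at 32.9 and 32.1 against 15.9, 11.5 and 14.7 CPM. Ide, the insulin-degrading enzyme, was named for its small p, not its fold, and was higher in Eomes-TKO. It stood at 83.0 and 92.1 against 151, 126 and 110 CPM (0.56 ± 0.13 SE). Each had an adjusted p of 1 by edgeR.

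A pair of neighbouring Schlafen genes on chromosome 11 showed large and opposite differences. Slfn8 stood at 43.2 and 55.9 CPM in Eomes-GFP and at 234, 250 and 206 CPM in Eomes-TKO cells. Slfn9 stood at 139 and 147 CPM in Eomes-GFP and at 22.1, 22.7 and 10.6 CPM in Eomes-TKO cells. The genotypes were far apart for both genes, yet neither passed in the model of 13 libraries (2.21 ± 0.68 SE for Slfn8 and -2.94 ± 0.93 SE for Slfn9, edgeR adjusted p = 1 for each). With the 5 IgG libraries alone Slfn8 was called (edgeR adjusted p = 0.000556; range over all alternatives 1.47e-44 to 1). Slfn8 made up 23.7% and 27.5% of the summed level of the pair in Eomes-GFP and 91.4%, 91.7% and 95.1% in Eomes-TKO cells.

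Treated Eomes-GFP libraries did not share 1 pattern for this pair. By the prefix that ties GFP+ to GFP- libraries, the animals numbered 1 and 2 had Slfn8 at 89.6% and 89.2% of the pair in GFP- cells and at 80.5% and 81.8% in GFP+ cells. The animal numbered 3 had 24.4% and 27.2%, near the 2 Eomes-GFP IgG libraries. Both treated Eomes-TKO libraries had 93.6% and 90.5%. The Slfn8 share was therefore high in some Eomes-GFP animals, and the difference did not follow genotype over all 13 libraries. The transcripts of Slfn8 share 19.1% of their 31-base words with Slfn9, so the split of reads between them is uncertain. Of the 40 tested genes nearest to Slfn8, 8 (20.0%) had an unadjusted p under 0.05, beside 3.06% of all genes.

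Other genes were divided by animal too, though Fbxw10 in GFP+ cells stayed below the Eomes-GFP IgG libraries. Ubb-ps, a ubiquitin pseudogene on chromosome 14, stood at 53.2 and 87.7 CPM in Eomes-GFP and at 10.0, 15.5 and 9.83 CPM in Eomes-TKO IgG libraries, with 12.4, 12.5 and 128 CPM in the 3 GFP- libraries. Gm11425, next to Slfn8, was at 0 and 0.0979 CPM in Eomes-GFP and at 3.23, 3.25 and 3.98 CPM in Eomes-TKO libraries, with 2.68, 1.46 and 0 CPM in GFP- libraries. For both the third treated animal resembled the Eomes-GFP IgG libraries and the other two the Eomes-TKO libraries. Trim16, a TRIM protein on chromosome 11, stood at 6.87 and 12.1 against 0.625, 1.68 and 1.59 CPM, and its GFP- values were 6.22, 1.46 and 12.9 CPM, with animal 2 the low one. Fbxw10, an F-box protein, stood at 6.99 and 9.40 against 3.34, 1.18 and 1.73 CPM, and at 5.24, 1.10 and 9.21 CPM in GFP- cells. GFP+ cells of the same animals held 2.63, 0 and 3.01 CPM of Fbxw10, with animal 2 again the lowest and none near the Eomes-GFP IgG libraries. Its transcripts share 5.13% of their 31-base words with Trim16. Ubb-ps and Gm11425 were named after their values were seen, and whether inherited differences between animals bear on these genes was not tested.

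**Figure D5:**
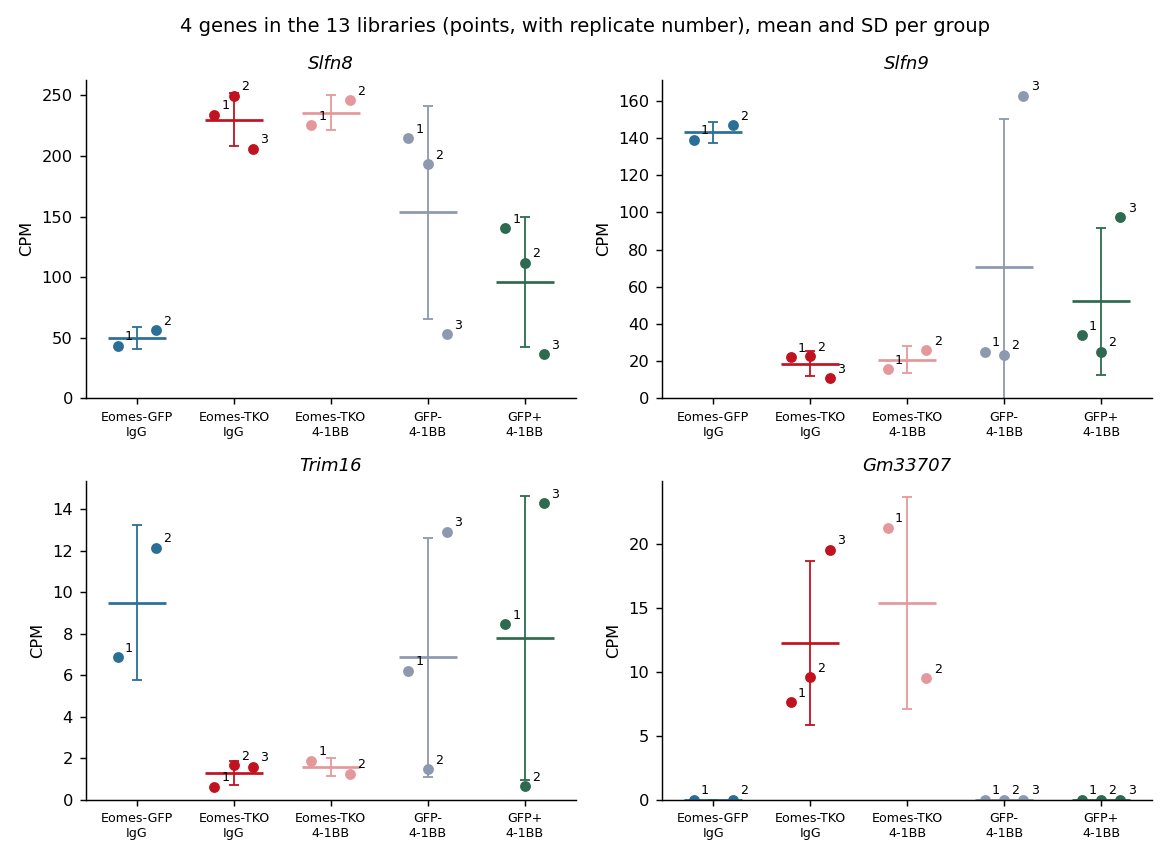
Levels of Slfn8, Slfn9, Trim16 and Gm33707 in CPM (vertical axis) in the 13 libraries by group, with the replicate number beside each point and the group mean and SD as bars. For Slfn8 and Slfn9 the libraries of treated animal 3 sit with the Eomes-GFP IgG libraries, and Gm33707 is at 0 in all 8 Eomes-GFP libraries.

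The direction of these differences was also read in the treated libraries, where undivided Eomes-GFP cells were not measured. The contrast under IgG holds none of these libraries, but the scaling, gene filter and spread behind the choice of the 241 and 189 genes use them. Of the 241 higher genes, 44 (18.3%) had both treated Eomes-TKO libraries above all 6 treated Eomes-GFP libraries, against 5.65% of all genes. Of the 189 lower genes, 31 (16.4%) had both below all 6, against 5.53%. Against treated GFP- cells alone, 179 of the 241 (74.3%) were positive and 138 of the 189 (73.0%) negative, beside 50.2% and 49.7% of all genes. The 75 genes that kept their side include Kcnc1, Stt3b, Gm33707, S1pr1, Foxo1, Hsp90aa1, Hsph1 and Vav1. Zkscan7, a zinc finger gene of chromosome 9, stood at 14.8 and 14.1 against 21.6, 23.1 and 19.3 CPM under IgG, at 19.2 and 20.2 CPM in treated Eomes-TKO cells and at 13.2 to 16.5 CPM in the 6 treated Eomes-GFP libraries. Slfn8, also among the 75, lay at 226 and 246 CPM in treated Eomes-TKO cells, just above the highest treated Eomes-GFP library at 215 CPM. As only 1 genotype contrast per treatment was available, differences between the lines other than Eomes cannot be told apart from it.

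Markers of other cell types were mostly low. Of listed members too low to test, some were at 0 and others held a few counts. Cd79b held 5 and 6 counts in Eomes-GFP against 11, 11 and 3 in Eomes-TKO libraries. Pax5 held 4 and 3 against 7, 1 and 2 counts, and Klre1 1 and 2 against 3, 6 and 2. Foxp3, which marks regulatory T cells, stood at 0.636 and 1.17 CPM in Eomes-GFP and at 0.834, 1.48 and 2.52 CPM in Eomes-TKO cells. The summed level of 4 regulatory T cell markers, which activated helper cells also express in part, was 98.9 to 118 CPM against 85.1 to 104 CPM. That of 2 CD8 markers was 5.34 to 8.81 CPM against 7.44 to 9.59 CPM. Sums of 3 tested B cell markers (8.32 to 11.1 against 7.57 to 12.4 CPM) overlapped. The 8 tested myeloid markers were at 9.59 to 9.92 CPM against 10.7 to 14.3 CPM, without overlap, and Cd14 was at 0. The 3 tested NK markers, Eomes among them, were at 25.1 to 33.5 CPM against 13.3 to 27.2 CPM, and Ncr1 was at 0. The other NK markers tested, Klrb1c and Klrk1, had positive log2 fold changes (0.47 and 0.31). Klrb1c stood at 6.99 and 6.66 against 6.57, 8.97 and 13.0 CPM, and Klrk1 at 4.07 and 9.99 against 5.42, 9.96 and 11.0 CPM. Of 4 tested plasma cell markers the sums were 311 to 328 CPM against 331 to 413 CPM, without overlap, and held mostly Ighm (263 and 279 against 334, 366 and 275 CPM), while Tnfrsf17 and Igha were at 0. Sums of 2 erythroid and 1 platelet marker reached at most 1.46 and 2.55 CPM in any of the 5 libraries. The 4 tested innate-like T cell markers were not as low, at sums of 36.6 and 55.9 against 47.3, 52.8 and 52.7 CPM, which overlapped. All 4 were positive, with a median of 0.07. Zbtb16 stood at 15.1 and 32.5 against 23.6, 28.5 and 23.4 CPM, and Trdc at 9.28 and 8.71 against 10.5, 8.38 and 9.03 CPM. The part of such cells in the differences above was not tested.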

How the data were processed

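RNA-seq of CD4+ T helper cells was used as deposited: the authors gave 1 table of estimated counts per gene, and the genome was GRCm39 with Salmon 1.5.2, STAR 2.7.10a, Trim Galore 0.6.7 and cutadapt 3.4, per the submitters' processing notes. Groups came from the labels. Column names matched 13 samples, and 34 further columns stayed out. Expected counts were rounded. The test was edgeR 4.0.16's under R 4.3.3 (TMM, filterByExpr, robust quasi-likelihood test, two-sided, Benjamini-Hochberg adjustment at 0.05) in 1 model of all 13 libraries and 5 groups, with 8 residual degrees of freedom. The model treats GFP+ and GFP- fractions that share a library prefix as separate samples, so 8 may overstate the independent degrees of freedom. Of 56748 genes 14059 were tested. The floor of 3 counts covers counting error only. The spread behind each p-value is that between libraries, which may be technical. The members and the 27 gene lists were chosen with earlier results of these data known. Named genes were those called, the 10 smallest p, up to 12 largest folds per direction, up to 4 per list, 8 top genes of each list from the treated sort, and a fixed set; others are said to be chosen after their values were seen. Zkscan7, Hdac9, Bend4, BC035044, Arfgef3, Eno1, Gm11425, Ubb-ps and the 9-gene rule are such additions. Chromosomes and gene order are those of GENCODE M21 (GRCm38, not the authors' build). Alternatives were other scalings, filters and tools (DESeq2 1.42.0, limma 3.58.1), the IgG libraries alone, a replicate block and leaving out each library. The code was tested on simulated data.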

Additional observations from a re-analysis of the deposited data

How the results depend on the processing

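Eomes and Kcnc1 were the 2 genes called under other scalings (DESeq2 size factors, upper quartile, library totals only), under a filter of 1 CPM in 2 libraries, with the spread not estimated robustly and with the replicate number as a replicate block (Eomes -2.68, adjusted p = 0.0423; Kcnc1 -2.84, adjusted p = 0.0309). Deviations of same-numbered libraries correlated at -0.295 and 0.255, which cannot tell whether the numbers pair the samples. With 2 Eomes-GFP libraries the deviations of each mirror those of the other. With no filter on low counts 112 genes were called and 849 had an unadjusted p under 0.05, where edgeR's median total degrees of freedom were 189104 against 14.5. DESeq2 called 5 genes (Eomes, Gm33707, Kcnc1, Myb and Stt3b) and limma-voom 0, with 449 genes at an unadjusted p under 0.05 when robust and 472 when not, the latter chosen after seeing the data. Under robust limma-voom Eomes stood at -2.72 and Kcnc1 at -2.79 (adjusted p = 0.0570 for both), and the version that was not robust gave the same fold changes with an adjusted p of 0.0789 for both. With the IgG libraries alone 1 gene, Slfn8, was called, with Eomes at -2.63 and Kcnc1 at -2.85. Leaving out each library gave 0 to 5 called genes and 298 to 538 with an unadjusted p under 0.05, with Eomes from -2.81 to -2.33 and Kcnc1 from -3.06 to -2.61; a lone Eomes-GFP library is then assumed to vary like the other groups. Without Eomes-TKO replicate 3 the 5 were Trav6d-6, Kcnc1, Trav6-6, Gm33707 and Eomes. At a log2 limit of 2 and 20 CPM the treated sort gave 202 genes high and 113 low in GFP+ cells, in place of 34 and 11, with medians of -0.02 and 0.07 by genotype. Genes near 0 changed sign on leaving out a library: Slamf6 (-0.0595 to 0.30), Tbx21 (-0.17 to 0.67), Adam19 (-0.0447 to 0.23), Satb1 (-0.0136 to 0.10), Tnfrsf9 (-0.19 to 0.0740; 0.0775 with the replicate block), Cxcr5 (-0.33 to 0.28; 0.0520 with the replicate block) and Pdcd1 (-0.13 to 0.21). List medians near 0 did so too: T-box linked (-0.26 without Eomes-GFP replicate 1 to 0.20 without replicate 2), cytotoxic (-0.16 to 0.01), inhibitory receptor (-0.09 to 0.08), T cell receptor signalling (-0.03 to 0.05) and N-glycosylation genes (-0.01 to 0.11). Where no reason is given, the cause was not tested. With 3 and 2 libraries, differences under 2-fold were often within the intervals.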
